A study of Homo sapiens with 12 samples.

Results

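The libraries described here were made from D283 cells, an established human medulloblastoma line known for an amplified MYC gene, that had received a scrambled control. They were chosen by the genotype label control, which 3 of the 6 libraries of the series carry, or 6 of its 12 sequenced samples, because each library was run on 2 lanes. The other libraries come from D283 cells with ABL1 and ABL2 inactivated and were not compared with them. Messenger RNA was sequenced as 50-base read pairs and counted per gene. The labels give DMEM-12 with FNS, NEAA and glutamine as the medium of all cells. They do not give the type of scrambled construct, whether the cells are 1 clone, or whether the 3 libraries came from separate cultures, so the spread between libraries may be technical.

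Medulloblastoma is a tumour of the cerebellum, and 4 molecular groups called WNT, SHH, Group 3 and Group 4 are told apart by the genes their cells transcribe. Group 3 tumours are known for amplification of MYC, for the homeobox factor OTX2 and for genes of retinal photoreceptors. SHH tumours resemble precursors of cerebellar granule neurons, which arise from the rhombic lip and transcribe ATOH1 and ZIC genes. A cell line holds one kind of tumour cell in culture, without the vessels, glia and immune cells of a tumour.

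The control libraries held 35893081, 34951232 and 33505903 counts. Levels are given as CPM, counts scaled to the total of the library, or as TPM, counts divided by the exon length of the gene and scaled to the same sum in each library, as mean ± SD of the 3 libraries. Levels of different genes are compared in TPM. A gene is called expressed at 1 TPM or more in every library. A count of 0 in a library allows up to 3 counts, or 0.0836 to 0.0895 CPM, which is 0.233 to 0.247 TPM for a gene with an exon length of 1000 bases; this covers counting error only.

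A count of 0 could not be read as absence for every gene. Genes that every dividing cell uses were at or near 0, such as the beta-tubulin gene TUBB with 0, 0 and 1 counts and the translation factor gene EIF4A1 with no count. Of 1638 protein-coding genes that the table also lists on an alternate locus of the genome, 8.49% were expressed and 60.4% had no read. Of 335 genes with no such copy but with at least 75% of their exon bases on exons of another gene, 21.2% were expressed and 39.1% had no read. The remaining 17918 genes, called readable here, had 57.7% expressed and 18.6% with no read. This rule did not look for near-identical genes at other places in the genome, so values of such genes may be too low. The sources used here do not give the treatment of reads with several alignments or several genes. Low values of the other 2 classes are therefore not read as low expression, and 42 of the 522 genes in the lists used here belong to them.

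**Figure D1:**
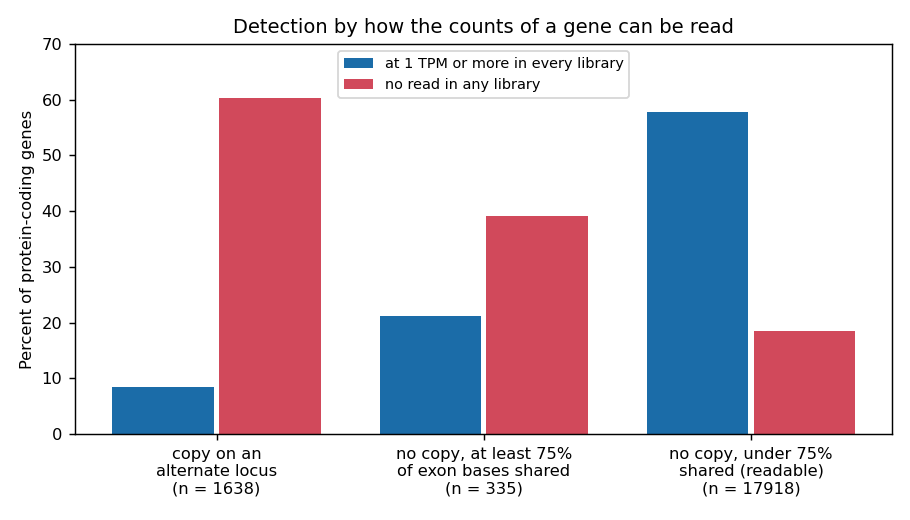
Bars give the percent of protein-coding genes (y axis) at 1 TPM or more in every control library and with no read in any, for 3 classes of genes (x axis). Genes with a copy on an alternate locus had no read in 60.4% of cases, and readable genes in 18.6%.

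Across all 19891 protein-coding genes, 10554 (53.1%) were expressed and 4446 (22.4%) had no read. Of the readable genes 10344 (57.7%) were expressed and 3326 (18.6%) had no read. By mean TPM of the readable genes of nuclear DNA, 5607 lay between 10 and 100 TPM and 1421 between 100 and 1000. The top class, 108 genes at 1000 TPM or more, held 26.1% of all TPM. A further 4117 genes had reads but a mean under 1 TPM, and together held 0.0822%.

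All 6 marker genes taken for these cells were expressed, against 53.1% of all protein-coding genes. They were chosen with earlier results of these data known. Their mean levels ran from 82.5 TPM for HMGA2 to 1118 for VIM. VIM, which codes for the intermediate filament vimentin, stood at 1099, 1127 and 1129 TPM in the 3 libraries, rank 99 among nuclear protein-coding genes. It shares 29.8% of its exon bases with VIM-AS1, and the treatment of reads on such bases is not given. OTX2, a homeobox factor of the forebrain, midbrain and retina, had 689, 711 and 711 TPM (mean 704 ± 12.4), rank 157. Both lay above 179 TPM, the median of 27 housekeeping genes, as did CCND2 and MYC below. Of these 27 genes 4 are not readable, so the median may be too low. The cyclin gene CCND2, which drives cells from G1 into S phase, had 369, 364 and 370.4 TPM. MYC, the amplified growth regulator of this line, had 283, 296 and 304 TPM (mean 294 ± 10.5), rank 459. IGF2BP1 and HMGA2 are fetal genes, an mRNA-binding protein and a chromatin protein that most adult tissues switch off. IGF2BP1 had 125, 121 and 115 TPM, and HMGA2 80.6, 84.1 and 82.8. The libraries lay close together for all 6, with a coefficient of variation (CV, SD over mean) of TMM-normalised CPM between 1.83% for VIM and 4.07% for MYC.

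These genes lie on 5 chromosomes of GRCh38.p14. MYC is at chromosome 8, 127735434 to 127742951 on the forward strand, OTX2 at chromosome 14, 56799905 to 56810479 on the reverse strand and VIM at chromosome 10, 17228241 to 17237593 on the forward strand. CCND2 is at chromosome 12, 4273762 to 4305353 on the forward strand, IGF2BP1 at chromosome 17, 48996558 to 49056145 on the forward strand and HMGA2 at chromosome 12, 65824460 to 65966291 on the forward strand.

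By TPM, genes of protein synthesis filled the top of the list. PTMA, which codes for the small acidic nuclear protein prothymosin alpha, was the nuclear protein-coding gene of highest TPM, with 7766, 9057 and 9412 TPM (mean 8745 ± 866). Replicate 1 lay below the other two. RPL30, a protein of the large ribosomal subunit, followed with 8169.7, 8594 and 8881 TPM, and the ranges of these 2 genes overlapped. RPL41 (6086 ± 432 TPM) and the actin-binding peptide gene TMSB4X (5732 ± 276) were also near the top. Of the 20 genes of highest TPM, 11 code for ribosomal proteins, and of the top 100, 45. Beside RPL30 and RPL41 these included RPL3 (4779.8 TPM), RPL24 (4187), RPL8 (4039), RPL13A (3828), RPS27 (3817), RPS6 (3762) and RPL12 (3724).

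The rest of the top 20 were genes of translation, folding, the cytoskeleton and glycolysis. EEF1A1 brings aminoacyl-tRNA to the ribosome and had 4384 ± 109 TPM, PABPC1 binds poly(A) tails (4239.6 ± 91.0), and RACK1 is a scaffold on the small ribosomal subunit (3542 ± 43.8). The chaperone genes HSP90AB1 and HSPA8 had 4599 ± 126 and 3823 ± 171 TPM. ACTB, the beta-actin gene, had 4280.5 ± 107, and GAPDH, the glycolytic enzyme often taken as a reference gene, 4946 ± 118. Ranked without regard to length, by CPM, the order was PABPC1 (5782 CPM), EEF1A1 (5529), HSP90AB1 (4716), PTMA (3825) and NCL (3813), the gene of the nucleolar protein nucleolin. The ribosomal protein gene of highest CPM was RPL3, at rank 16 (2225 CPM). Only 8 genes were in the top 20 on both scales, so the order of abundant genes depends on the length scaling.

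As a group, the 83 cytosolic ribosomal protein genes held 14.02% ± 0.369 of all TPM and 5.65% ± 0.159 of the counts. Of 75 readable ones 74 were expressed, with a median of 1480.3 TPM. The exception was RPL10L, a copy of RPL10 known from the testis, at 0.0355 TPM. The 10 genes of highest TPM, mitochondrial ones included, held 12.1% ± 0.874 of all TPM, the top 100 held 37.5% ± 0.818 and the top 1000 69.0% ± 0.293. Some genes of more restricted use were in the top 100 too, named here after their values were seen. They include LAPTM4B, a lysosomal membrane protein (3337 ± 109 TPM), the retinoic acid carrier CRABP2 (1474 ± 82.7), the detoxifying enzyme GSTP1 (1905 ± 79.2) and the secreted peroxidase GPX3 (1121 ± 8.29).

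**Figure D2:**
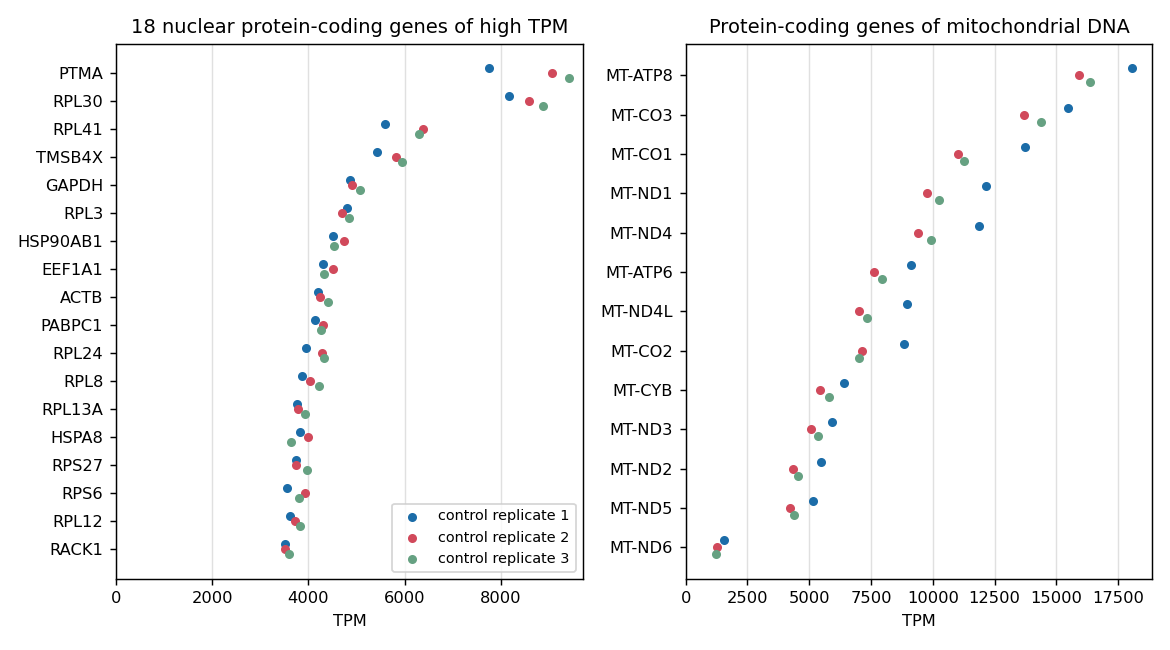
Points are TPM (x axis) in each of the 3 control libraries for 18 of the 20 nuclear protein-coding genes of highest mean TPM (left) and the 13 protein-coding genes of mitochondrial DNA (right). PTMA and RPL30 led the nuclear genes, and replicate 1 was the highest library for all 13 mitochondrial genes.

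Transcripts of mitochondrial DNA, which codes for subunits of the respiratory chain, were abundant and uneven between libraries. All 37 mitochondrial genes together held 15.6%, 12.9% and 13.5% of TPM. Among the 13 protein-coding ones MT-ATP8 came first at 16771 TPM, but its frame overlaps that of MT-ATP6 (8234 TPM) and its reads cannot be told apart from those of its neighbour in full. The cytochrome oxidase genes MT-CO3, MT-CO1 and MT-CO2 had 14518, 12014 and 7665 TPM, and MT-CYB, of complex III, 5894. Among the complex I genes MT-ND1 (10724 TPM) and MT-ND4 (10400.2) were high, followed by MT-ND4L (7772), MT-ND3 (5439), MT-ND2 (4785) and MT-ND5 (4587). MT-ND6, the only one of the 13 read from the other strand, was the lowest at 1349 TPM.

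In these mRNA-enriched libraries the noncoding genes of highest TPM were the mitochondrial ribosomal RNAs MT-RNR2 (23553 TPM) and MT-RNR1 (3758). BCYRN1, a short cytoplasmic RNA known from neurons whose sequence resembles Alu repeats, followed with 3170.4 ± 397 TPM. Below it came the mitochondrial transfer RNA MT-TL1 (1325) and the host genes of small nucleolar RNAs SNHG5 (801), SNHG29 (783), GAS5 (449) and SNHG6 (407). MALAT1, an RNA kept in the nucleus, had 465 ± 51.2 TPM and shares 82.1% of its exon bases with its antisense gene TALAM1, and SNORD141A is a small nucleolar RNA at 394. TPM of features this short is uncertain, and the 4729 entries with under 200 exon bases held 1.113% of TPM and 0.0339% of the counts.

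Of the 22 genes of a widely used set that tells the 4 medulloblastoma groups apart, 7 were expressed (31.8%, against 53.1% of all protein-coding genes), and 4 of these 7 are genes of Group 3. MAB21L2, a factor of eye and midbrain development, had 387, 405 and 389.9 TPM (mean 394 ± 9.72, rank 325). NPR3, the clearance receptor of natriuretic peptides, had 302, 303 and 279.98 TPM. The receptor subunit gene GABRA5 had 44.3, 44.3 and 42.5 and IMPG2, a proteoglycan of the matrix around photoreceptors, 22.1, 23.5 and 20.6. All 4 were at least 20 TPM in each library. The other 2 Group 3 genes were EYS, a protein that photoreceptors need, at 0.828, 0.860 and 0.744 TPM, and NRL, the rod photoreceptor factor, which had no count but is not readable because of copies on alternate loci.

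The expressed genes of other groups lay below these 4. The SHH gene PDLIM3, of the cytoskeleton, had 17.2, 17.5 and 16.7 TPM, and HHIP, which binds hedgehog proteins, 3.39, 3.45 and 3.04. The WNT antagonist SFRP1 had 0.417, 0.685 and 0.664, the eye and ear factor EYA1 0.0554, 0.129 and 0.176, and ATOH1, the factor that defines granule neuron precursors, only 0, 3 and 2 counts. Of the Group 4 genes the RNA-binding protein gene RBM24 was expressed at 11.1, 12.01 and 13.8 TPM. KHDRBS2 (0.551, 0.668 and 1.10 TPM), EOMES (0.459, 0.522 and 0.348) and the netrin receptor gene UNC5D (0.0721, 0.103 and 0.0861) were not expressed by this rule, and the potassium channel gene KCNA1 and the antiviral gene OAS1 had no count. None of the 5 WNT genes was expressed. TNC, a matrix protein, came nearest with 1.26, 0.891 and 1.08 TPM, and the count was 1 without replicate 2, in lane 2 alone, by CPM, at 0.5 TPM and in TPM without mitochondrial genes. GAD1 had 1, 2 and 2 counts, and WIF1, DKK2 and EMX2 had none, which allows up to 0.122, 0.0658 and 0.0926 TPM. In bulk RNA fewer cells that transcribe a gene and less RNA per cell cannot be told apart.

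**Figure D3:**
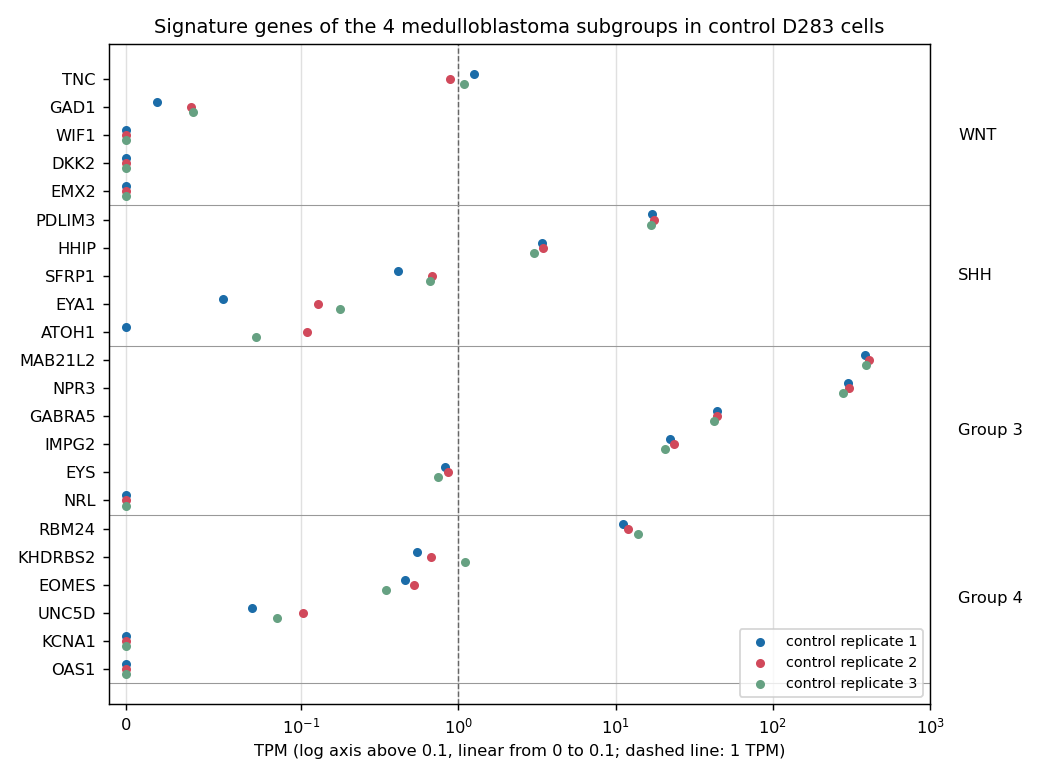
Points are TPM (x axis, linear from 0 to 0.1 and logarithmic above) of 22 signature genes in each of the 3 control libraries, ordered by medulloblastoma group and mean TPM. MAB21L2 (mean 394 TPM) and NPR3 (295) of Group 3 were highest, and no WNT gene was at 1 TPM or more in every library.

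Of 30 photoreceptor genes, 11 were at 1 TPM or more in every library (36.7%, against 53.1% of all protein-coding genes). CRX, the homeobox factor that activates photoreceptor genes, had 29.3, 35.3 and 33.2 TPM, and the cone phosphodiesterase inhibitor gene PDE6H 27.7, 29.02 and 28.3. IMPG2 (above), UNC119, which carries lipid-modified proteins (12.7, 14.4 and 16.03 TPM), and PRDM13, a factor of retinal interneurons (8.03, 7.95 and 8.55), made up the 5 highest. The cone pigment gene OPN1SW and the homeobox gene RAX2 had no count, which allows up to 0.217 TPM for OPN1SW. NRL and GUCA1A, also without a count, are not readable.

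Of 25 factors of the rhombic lip and the granule cell lineage, all readable, 8 were expressed. This is 32.0%, against 53.1% of all protein-coding genes and 57.7% of readable ones. MAB21L1, the close relative of MAB21L2, stood at 319, 323 and 324 TPM, and TBR1, a T-box factor of glutamatergic cerebellar nuclear and cortical neurons, at 146, 146 and 148. ZIC1, a zinc finger factor of granule neurons, had 51.8, 56.8 and 57.4, NEUROD1 11.2, 12.6 and 12.2 and LHX2 10.9, 9.68 and 11.2. LMX1A and LMX1B, which act in the roof plate and rhombic lip, and BARHL1, a granule neuron factor, had no count. Among 10 genes of mature granule neurons 4 were expressed (40%, against 53.1% of all protein-coding genes). CBLN1, a secreted synapse organiser, had 145, 159 and 156 TPM, RELN, which guides neuron migration, 59.2, 55.1 and 48.0, CADPS2 10.4, 10.1 and 9.37 and the vesicular glutamate transporter SLC17A7 3.47, 3.66 and 4.24. GRM4 had no count, and CALB2, also without one, is not readable.

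Factors of GABAergic cerebellar neurons were near or below 1 TPM. Of 12, 1 was expressed (8.33%, against 53.1% of all protein-coding genes): FOXP2, at 1.19, 1.10 and 1.02 TPM. Without replicate 2 the count was 2. PTF1A, the factor that specifies these neurons, had no count, nor had LHX5, SKOR2, TFAP2B and LHX1, the last of which is not readable. Purkinje cells come from the same lineage, and their calcium-binding protein CALB1 was high at 207, 222 and 217 TPM (mean 215 ± 7.78, rank 681). Of 8 Purkinje genes 3 were at 1 TPM or more in every library (37.5%, against 53.1% of all protein-coding genes), among them ITPR1 (18.1, 17.7 and 16.2 TPM). PVALB and PCP4 had no count but are not readable.

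Of 22 genes that pattern the brain along its length 4 were expressed, OTX2 among them. This is 18.2%, against 53.1% of all protein-coding genes and 57.7% of readable ones. EN1, which marks the midbrain and anterior hindbrain, had 2.46, 2.19 and 2.65 and OTX1 1.82, 2.16 and 1.96 TPM. WNT1, IRX1, IRX3, HOXB2, EMX2 and RAX had no count. For the hindbrain gene HOXB2 this allows up to 0.104 TPM.

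Of 23 neural progenitor genes 13 were expressed (56.5%), a share close to the 53.1% of all protein-coding genes. HES6, which promotes neuronal differentiation, had 221, 210.1 and 219.6 TPM, PROM1, the membrane protein CD133, 90.3, 91.4 and 83.99, and SOX9, a factor of glial and radial glial cells, 73.0, 78.9 and 81.5. SOX4 (69.8, 73.9 and 76.0 TPM) and the proneural factor NEUROG1 (65.2, 69.1 and 70.5) followed. SOX2 and SOX1, which most neural progenitors transcribe, had no count in any library, which allows up to 0.0957 and 0.0527 TPM, and SOX3 had 1 count in all. FABP7, a fatty acid carrier of radial glia, had none either. HES5 and DLL1 had no count and are not readable.

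Of 24 neuronal genes 14 were expressed (58.3%), a share close to the 53.1% of all protein-coding genes, and 2 had no read. UCHL1, a ubiquitin hydrolase of neurons, had 1178, 1235 and 1199 TPM (rank 89). The neurofilament gene NEFH had 443, 507 and 536 TPM and NEFM 176, 204 and 221, in both cases lowest in replicate 1. STMN1, which takes microtubules apart, had 401, 414 and 409 and DPYSL3, of the growth cone, 264, 261 and 250.3. GAP43, the main protein of growing axons, had no count in any library, which allows up to 0.127 TPM. Other members of the list, named here after their values were seen, went both ways. DCX had 3, 2 and 1 counts and STMN2 0, 1 and 0, while ELAVL2 had a mean of 73.9 TPM. MAPT had no count and is not readable.

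Glial and other cell type genes were read as a check on the label. Of 8 astrocyte genes 3 were expressed (37.5%, against 53.1% of all protein-coding genes and 57.7% of readable ones). They were the gap junction gene GJA1 at 276, 283 and 278 TPM and the glutamate transporter genes SLC1A3 (42.6, 44.7 and 43.6) and SLC1A2 (2.74, 2.72 and 2.69). S100B and ALDH1L1 had no count. Of 10 oligodendrocyte genes 5 were expressed (50%, close to the 53.1% of all protein-coding genes). Among them were MYRF, a factor that activates myelin genes, at 12.4, 12.4 and 12.4 TPM, and OLIG2 at 5.16, 3.96 and 4.63. CSPG4 had 2.88, 3.08 and 3.04 TPM and PDGFRA 1.83, 1.87 and 1.98. The highest of the 5 is not reported here. MAG had no count, nor had MOG, which is not readable.

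Markers of blood and immune cells were at or near 0. None of 9 microglia and macrophage genes, 7 lymphocyte genes, 7 erythroid genes or 7 pluripotency genes was expressed. Of all protein-coding genes 53.1% were expressed, and of readable ones 57.7%. Readable were 7 of the 9 microglia and macrophage genes, 6 of the 7 pluripotency genes and all of the other 2 lists. Their summed levels over the libraries ranged from 1.43 to 2.08 TPM, 0.2603 to 0.597, 0 to 0.285 and 0.166 to 0.259. P2RY12 and TYROBP of microglia, CD3D, CD3E and MS4A1 of lymphocytes, and HBB, HBA2, HBG1, HBG2 and ALAS2 of red cells had no count. HBA1 and HBA2, and HBG1 and HBG2, are near-identical pairs. How reads that align to both members were treated is not given, so their low counts are not read as absence. Of the pluripotency genes SOX2, DPPA4, ZFP42 and CRIPTO had no count, nor had POU5F1, which is not readable; AIF1 of microglia was in the same position.

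Some genes of other cell types were expressed. Among 8 endothelial genes it was ESAM alone (3.64, 4.01 and 4.19 TPM), a count that was 2 without replicate 1, with no count for CDH5, which holds endothelial junctions together. Of 9 fibroblast and mural cell genes 5 were expressed (55.6%, against 53.1% of all protein-coding genes), the smooth muscle actin gene ACTA2 (76.7, 81.9 and 79.2 TPM), PDGFRB (12.8, 11.9 and 12.2), RGS5 (6.61, 7.33 and 7.43), COL1A1 (3.87, 3.53 and 3.97) and DCN (1.31, 1.37 and 1.17). THY1 had no count, and COL3A1, without a count, is not readable. Among 8 epithelial genes KRT8 alone passed, at 23.8, 21.4 and 23.4 TPM. Of 6 melanocyte genes, MITF (16.6, 16.4 and 16.4 TPM), DCT (10.5, 11.1 and 9.73) and TYRP1 (2.76, 2.697 and 3.33) were expressed, and of 7 muscle genes CKM (6.63, 7.56 and 6.51) and MYOG (1.65, 2.03 and 2.02), with no count for MYOD1 and MYF5. MITF and DCT are also known from the pigment epithelium of the eye. In all, 78 of the 236 lineage and cell type genes were expressed (33.1%) and 54 had no read (22.9%, against 22.4% of all protein-coding genes).

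All 27 housekeeping and all 25 proliferation genes were expressed, against 53.1% of all protein-coding genes. The proliferation genes, of which the ends are named after their values were seen, ranged from 53.8 TPM for CCNE1 to 676 TPM for PCNA, the sliding clamp of DNA replication. Of 50 genes mutated, lost or silenced in medulloblastoma or in cancer at large, 30 were expressed (60%, against 53.1% of all protein-coding genes). The 5 highest were the RNA helicase gene DDX3X (280.5, 289 and 269 TPM), the chromatin remodeller SMARCA4 (211, 214 and 225), CDK6 (162, 156 and 143), TBR1 and the cell cycle brake RB1 (120.3, 126 and 118). Below 0.1 TPM in every library were 10 genes, 7 of them readable. Such low values were not particular to the list. At most 3 counts in every library were found for 9 of the 50, against 6402 of all 19891 protein-coding genes, a larger share. No read was found for 3 of the 50, against 22.4% of all protein-coding genes. CASP8, the initiator caspase of death receptors, had 3, 3 and 4 counts, PRDM6 1, 2 and 6, CDH1 0, 3 and 1, GFI1 2, 2 and 0 and DKK1 1, 0 and 0. GFI1 and GFI1B are factors that some Group 3 and Group 4 tumours activate, and GFI1B had no count, nor had WIF1. The other 3, CDKN1C, SMARCB1 and KBTBD4, have copies on alternate loci, and no level is read for them. NF1 is in the same position and was counted among the 20 genes not expressed.

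Large gene families of specialised tissues were mostly without reads; they are named here after their values were seen, and the shares are of readable genes. Of 310 olfactory receptor genes 286 had no read (92.3%), as had 21 of 21 defensins, 19 of 19 late cornified envelope genes and 50 of 54 keratin-associated protein genes. The background is 18.6% of readable genes with no read. OR2W3 was the 1 olfactory receptor gene expressed, at a mean of 22.1 TPM. Zinc finger genes named ZNF stood at the other end: 395 of 474 were expressed (83.3%, against 57.7% of readable genes). Of 39 HOX genes 10 were expressed (25.6%), led by HOXC8 (32.6 TPM) and HOXA7 (31.5). Of 51 cytochrome P450 genes 8 were expressed, led by CYP1B1 (327 TPM). Of 321 solute carrier genes 170 were expressed (53.0%), among them the sulfate transporter SLC13A4 (438 TPM).

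The promoters of 5 genes show how sequence and level went together and where they did not; they are the 250 bases before and 50 after the gene start in RefSeq (GRCh38.p14), 5′ to 3′. In the first 4 the capitals mark CG pairs, which CpG-rich promoters hold in number, and in CRX they mark GGATTA, the motif that factors of the OTX and CRX family bind. PTMA (chr2:231708275-231708574, forward strand) has the highest level, OTX2 (chr14:56810430-56810729, reverse strand) a high level, SOX2 (chr3:181711675-181711974, forward strand) and GAP43 (chr3:115623260-115623559, forward strand) no read, and CRX (chr19:47821687-47821986, forward strand) an intermediate level.
PTMA: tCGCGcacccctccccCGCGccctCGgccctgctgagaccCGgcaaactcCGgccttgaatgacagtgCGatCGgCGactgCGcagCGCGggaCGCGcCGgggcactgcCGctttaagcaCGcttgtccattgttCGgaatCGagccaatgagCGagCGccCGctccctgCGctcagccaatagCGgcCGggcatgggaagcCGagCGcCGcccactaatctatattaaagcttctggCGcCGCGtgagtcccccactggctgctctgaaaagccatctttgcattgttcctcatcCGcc
OTX2: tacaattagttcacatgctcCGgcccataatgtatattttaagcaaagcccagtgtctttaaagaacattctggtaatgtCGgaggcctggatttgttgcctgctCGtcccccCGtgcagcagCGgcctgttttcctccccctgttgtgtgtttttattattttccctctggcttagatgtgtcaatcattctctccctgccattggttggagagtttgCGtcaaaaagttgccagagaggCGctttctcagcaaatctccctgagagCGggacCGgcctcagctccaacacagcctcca
SOX2: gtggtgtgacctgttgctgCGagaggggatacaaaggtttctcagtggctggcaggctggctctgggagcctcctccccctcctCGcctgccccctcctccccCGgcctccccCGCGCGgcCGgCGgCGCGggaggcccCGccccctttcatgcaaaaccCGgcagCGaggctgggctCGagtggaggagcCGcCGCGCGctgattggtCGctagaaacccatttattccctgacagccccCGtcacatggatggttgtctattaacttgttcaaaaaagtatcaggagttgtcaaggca
GAP43: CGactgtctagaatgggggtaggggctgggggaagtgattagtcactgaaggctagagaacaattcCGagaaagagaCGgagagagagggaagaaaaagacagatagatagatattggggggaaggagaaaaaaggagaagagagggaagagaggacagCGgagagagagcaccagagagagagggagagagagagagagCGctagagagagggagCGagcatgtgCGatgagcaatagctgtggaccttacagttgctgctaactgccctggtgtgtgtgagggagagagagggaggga
CRX: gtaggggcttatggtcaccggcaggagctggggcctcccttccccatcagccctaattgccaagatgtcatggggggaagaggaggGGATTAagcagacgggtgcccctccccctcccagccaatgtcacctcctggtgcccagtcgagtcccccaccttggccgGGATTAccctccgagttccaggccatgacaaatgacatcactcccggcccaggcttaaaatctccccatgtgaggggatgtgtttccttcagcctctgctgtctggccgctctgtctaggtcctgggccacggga

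PTMA has 33 CG pairs in these 300 bases, SOX2 20, OTX2 9 and GAP43 7. SOX2, with no read, thus has more than OTX2 at 704 TPM. In CRX the motif starts 164 and 85 bases before the gene start. Searched on both strands, GGATTA was in 5.10% of all 12389 promoters of readable protein-coding genes; a match of letters is a description and not a binding site.

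Across those 12389 promoters CpG content went with the level. A CpG ratio (observed over expected from the C and G content) of 0.6 or more was found in 23.7% of promoters of genes with no read (95% exact binomial interval 21.9 to 25.5). It was found in 46.99% of those under 1 TPM, 79.8% between 1 and 10, 89.8% between 10 and 100, 93.4% between 100 and 1000, and 93.9% (86.3 to 98.0) at 1000 TPM or more, against 67.8% of all. The letters TATAAA, on the gene's strand and starting 40 to 15 bases before the start, were in 9.06% of promoters of genes with no read and in 1.22% between 10 and 100 TPM. At 1000 TPM or more they were in 6.10%, which is 5 of 82 promoters, against 3.75% of all. The motif CCGGAAG, bound by ETS factors, was in 3.60% of promoters of silent genes, 25.9% between 100 and 1000 TPM, 21.95% at 1000 TPM or more and 14.8% of all. CACGTG, the E-box that MYC and other factors bind, was in 5.56% with no read, 11.9% between 100 and 1000 TPM, 10.98% in the top class and 8.84% of all. GGGCGG, bound by SP1, was in 27.7%, 72.4%, 67.1% and 59.4% of the same sets. Both strands were searched for these 3, and each motif holds a CG pair, so none is independent of the CpG content.

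**Figure D4:**
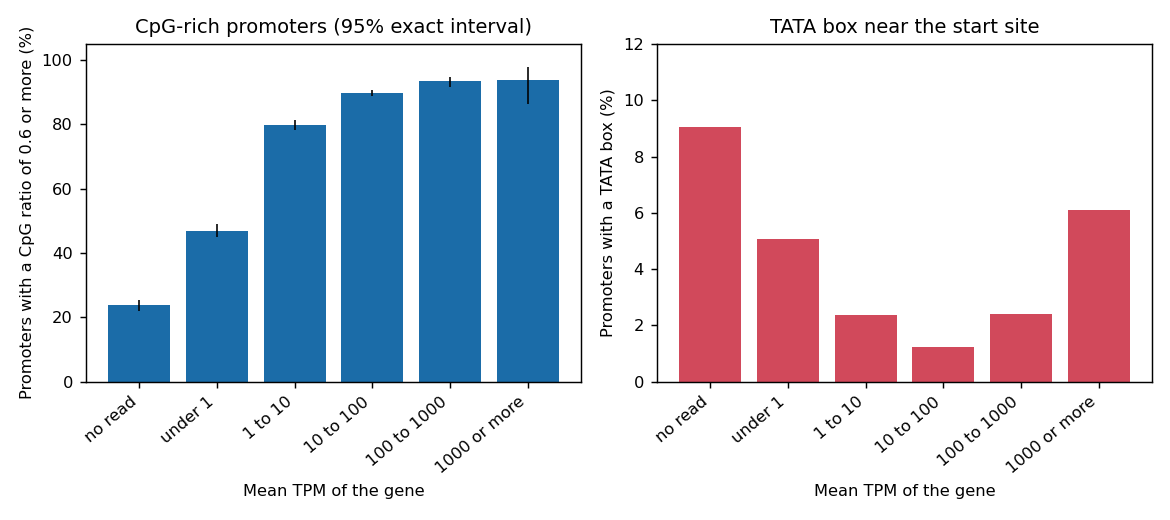
Bars give the percent of promoters (y axes) with a CpG ratio of 0.6 or more (left, with 95% exact intervals) and with TATAAA 40 to 15 bases before the start (right), by mean TPM of the gene in control cells (x axes). CpG-rich promoters rose from 23.7% of genes with no read to 93.9% at 1000 TPM or more, while TATAAA was lowest, 1.22%, between 10 and 100 TPM.

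Members of 57 families of related genes were ordered by their mean TPM in these same libraries. In 55 of 57 families the first member lay above the second in every library, and in 42 of the 44 families whose members were all readable. As the order was taken from the same values, this shows only that the libraries seldom overlapped and is no test of a leader. Where a member is not readable, its place in the order is not known. In 18 of those 44 the leader held at least 90% of the summed TPM. Ratios below are the mean ± SD of the ratio of TPM in each library, and the SD does not cover the choice of length. Of 50 families the fold of first over second moved by over 1.5 times in 24 by CPM or with coding lengths. The folds that could be computed stand beside each ratio below that moved so. Pairs given below only as levels can move in the same way. The 2 exceptions were the phosphofructokinases, where PFKP (48.0, 49.5 and 49.5 TPM) and PFKM (48.3, 47.2 and 47.6) overlapped above PFKL (32.8, 29.9 and 32.7), and the SOXB1 genes SOX1, SOX2 and SOX3, all at or near 0. Among the families described here the order of 4 leaders turned on the length scaling: by CPM and with coding lengths HMGB1 lay above HMGB2, TPM4 above TPM2, LMNB1 above LMNB2 and PFKM above PFKP.

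Families of growth control were led by MYC and CCND2 among others. MYC held 99.6% ± 0.0774 of the MYC family, with MYCN at 0.505, 0.760 and 1.10 TPM and MYCL at 0.496, 0.697 and 0.373, which overlapped. Of the D cyclins, which activate CDK4 and CDK6, CCND2 held 90.6% ± 0.501, CCND3 had 36.8, 36.7 and 41.1 TPM and CCND1 1, 1 and 0 counts. Among the kinases ARAF had 41.8, 42.2 and 38.9 TPM and BRAF 8.58, 8.32 and 8.30. The growth signal gene NRAS had 143, 146 and 134 TPM. AKT2 had 63.6, 61.1 and 63.6 TPM and AKT1 54.1, 51.5 and 53.8. HRAS is not readable.

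Fetal and nuclear protein families are described in the same way. HMGA1 was 6.56 ± 0.246-fold above HMGA2 (2.52-fold by CPM and 3.46-fold with coding lengths), at 530.3, 530.3 and 563 TPM. IGF2BP1 was 3.54 ± 0.116-fold above IGF2BP3 (34.1, 34.9 and 33.1 TPM) and 7.10-fold by CPM and 7.13-fold with coding lengths, with IGF2BP2 at 26.8, 26.1 and 27.4. LIN28B, which blocks the let-7 microRNAs, had 12.8, 12.3 and 11.3 TPM and its relative LIN28A 0.254, 0.243 and 0.166. HMGB2 and HMGB1 had 752 and 286 TPM, HMGB3 128, and HMGB4 no count. HMGN2 (941 TPM) led HMGN1 (229), HMGN3 (150.4) and HMGN5 (5.76), while HMGN4 is not readable. PTMA was 5.93 ± 0.0635-fold above PTMS. NPM1, the nucleolar chaperone, had 3295 TPM against 273 for NPM3 and 0.465 for NPM2. It was 12.1-fold above NPM3 by TPM, 28.7-fold by CPM and 17.4-fold with coding lengths. The histone genes H2AZ1 and H2AZ2 had 2344 and 65.0 TPM, and H3-3B, H3-3A and H3-5 458, 37.5 and 0.935. H2AZ1 was 36.1-fold above H2AZ2 by TPM and 4.93-fold by CPM. For H3-3B over H3-3A the folds were 12.2 and 22.1, and neither family has a fold with coding lengths.

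Among enzymes of chromatin, DNMT1, which copies DNA methylation after replication, was 9.78 ± 0.295-fold above DNMT3A (18.7 TPM) and 3.26-fold by CPM and 1.82-fold with coding lengths, with DNMT3B at 11.1 and DNMT3L at 0.0585. TET3 (23.3, 22.7 and 23.2 TPM) led TET1 and TET2, which overlapped, with 10.6, 10.5 and 9.85 TPM for TET1 and 10.0, 10.2 and 9.40 for TET2. EZH2, the histone H3 methyltransferase of dividing cells, was 4.28 ± 0.148-fold above EZH1 (12.7-fold by CPM and 12.6-fold with coding lengths), and SMARCA4 5.81 ± 0.192-fold above SMARCA2. ACTL6A, the remodeller subunit of dividing progenitors, had 174, 191 and 186 TPM and ACTL6B, its counterpart in neurons, 2, 0 and 1 counts. TOP2A, the topoisomerase of mitosis, was 2.36 ± 0.0380-fold above TOP2B. The lamins LMNB2, LMNB1 and LMNA had 269, 228 and 92.3 TPM.

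RNA-binding and neural factor families mixed forms of dividing and of nerve cells. PTBP1, which represses neuronal splicing, was 6.46 ± 0.311-fold above PTBP3 (2.62-fold by CPM and 2.48-fold with coding lengths), and the neuronal form PTBP2 had 9.34, 10.4 and 9.58 TPM. ELAVL1, found in most tissues, had 113, 112 and 111 TPM and the neuronal ELAVL2 71.3, 76.0 and 74.2, with ELAVL3 at 0.227 and ELAVL4 at 0.00361. MSI2 was 1.42 ± 0.0543-fold above MSI1 in TPM and 5.10-fold by CPM and 5.63-fold with coding lengths. Of the SOXC factors SOX12 (83.7, 85.3 and 93.1 TPM) lay above SOX4 and both above SOX11 (13.6, 13.7 and 15.5). OTX2 held 95.3% ± 0.342 of the OTX family and was 21.7 ± 1.70-fold above CRX. ZIC1 held 94.5% ± 0.692 of the ZIC family, with ZIC4 at 2.005 TPM, ZIC2 at 0.299 and ZIC5 at 0.0644. ID1, which blocks differentiation factors, had 313, 306 and 344 TPM, ID2 69.6, 77.4 and 76.0 and ID4 31.9, 32.7 and 32.3, and ID3 is not readable.

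**Figure D5:**
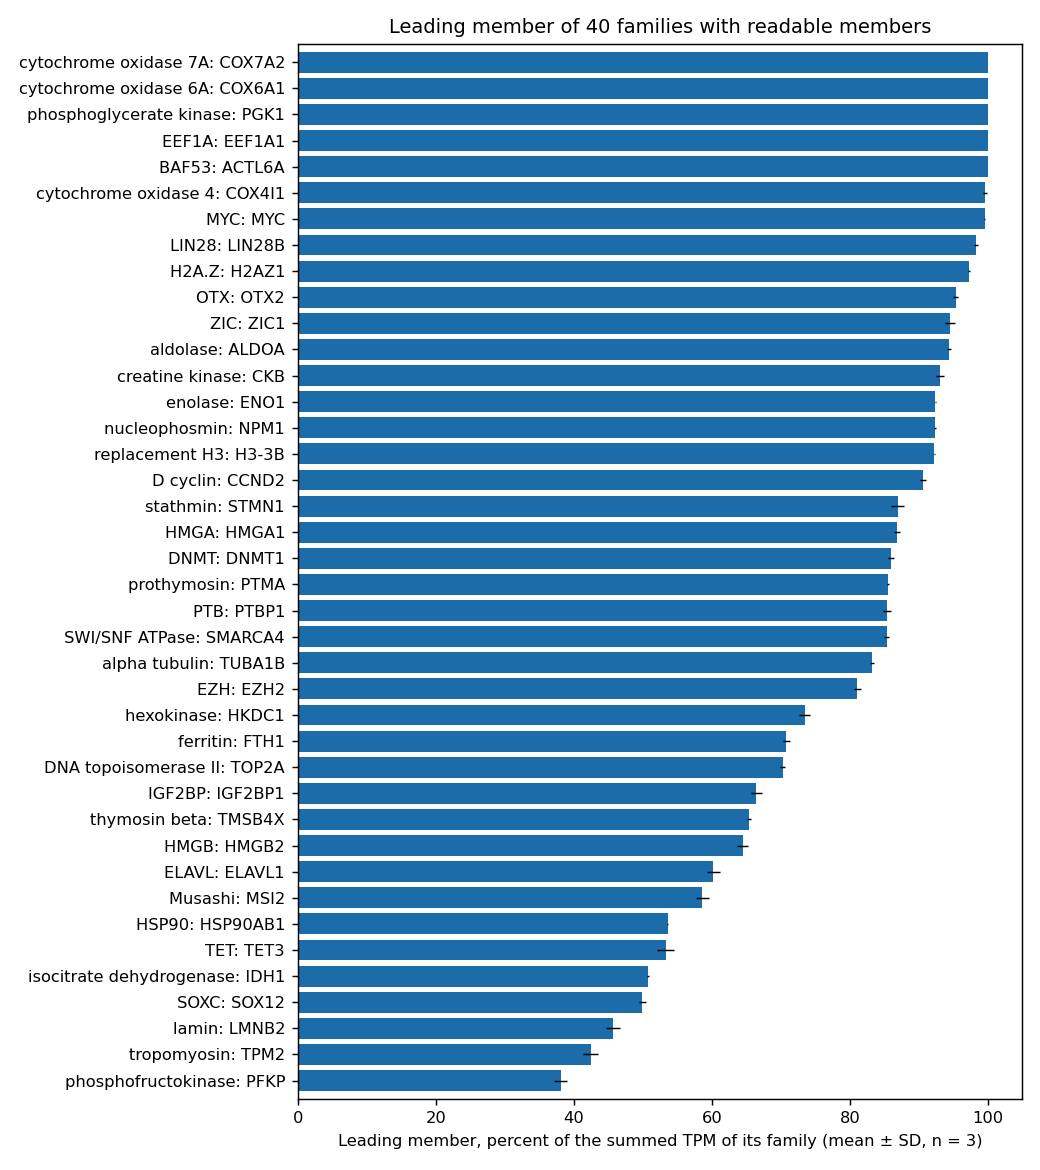
Bars give the share of the summed TPM of a family (x axis, percent, mean ± SD of 3 control libraries) that its leading member held, for 40 families with all members readable and at least 1 expressed. Shares ran from 38.1% for PFKP to 100% for COX6A1 and COX7A2, whose relatives had no count.

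Among the readable actins of the cytoskeleton ACTB led, 54.0 ± 1.95-fold above ACTA2. ACTG2, ACTC1 and ACTA1 had 1.24, 0.768 and 0.573 TPM and overlapped. ACTG1 is not readable, so whether it exceeded ACTB cannot be read. TUBA1B was 8.66 ± 0.237-fold above TUBA1A (368 TPM), followed by TUBA1C (269), TUBA4A (3.55) and TUBA8 (0.493). TUBA3C and TUBA3D, a near-identical pair, had no count, which is not read as absence because the treatment of reads that align to both is not given. TUBB4B led the readable beta tubulins with 706, 742 and 771 TPM, above TUBB6 (110.5) and TUBB2A (17.8). TUBB4A (15.96) and TUBB2B (14.3) came next and overlapped with each other. Below them were the neuronal TUBB3 (6.51), TUBB1 (0.0318) and TUBB8 (0.0154). Whether TUBB exceeded TUBB4B cannot be read. The tropomyosins TPM2, TPM4, TPM3 and TPM1 had 358, 279.5, 142 and 62.9 TPM. STMN1 was 6.70 ± 0.585-fold above STMN3, with STMN4 at 0.0598 TPM. TMSB4X was 1.89 ± 0.0219-fold above TMSB10, TMSB15A had 0.724 TPM and TMSB15B no count.

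In glycolysis the leading hexokinase was HKDC1, a hexokinase of few tissues, with 237, 239 and 238 TPM. It was 4.93 ± 0.284-fold above HK1, the form of most tissues, and HK2 had 38.2, 37.5 and 37.1 TPM. HK3 had no count. SLC2A1, the glucose carrier of most dividing cells, had 243, 237 and 237 TPM, SLC2A3 0, 2 and 0 counts and SLC2A2 none, and SLC2A4 is not readable. ALDOA was 16.8 ± 0.883-fold above ALDOC (5.72 TPM). ENO1 was 16.2 ± 0.153-fold above the neuronal form ENO2, with ENO3 at 48.7 TPM and ENO4 at 0.0999. PGK1 had 256 TPM against 0.0165 for PGK2 of the testis, and PKM 858, with PKLR not readable.

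LDHB, the lactate dehydrogenase subunit of heart and brain, had 2008, 2096 and 2048 TPM (rank 51). LDHA, the glycolytic subunit, had 31, 45 and 45 counts, but it has copies on alternate loci, so its level is not known here, and LDHC is in the same position. LDHAL6B, LDHD and LDHAL6A had 0.0923, 0.0769 and 0.00990 TPM. Of the lactate carriers SLC16A8, known from the pigment epithelium of the eye, had 1.17, 1.18 and 1.55 TPM, SLC16A3 0.0745 and SLC16A7 0.00995, and SLC16A1 is not readable. CKB, the brain creatine kinase, held 93.0% ± 0.578 of its family. CKM had 6.90 TPM, the near-identical CKMT1B and CKMT1A 5.21 and 2.98, and CKMT2 no count.

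Among readable members, mitochondrial families were led by widespread forms. SLC25A5 was 43.4 ± 1.89-fold above SLC25A4 (12.8-fold by CPM and 12.8-fold with coding lengths), and SLC25A31 had 1, 1 and 0 counts. SLC25A6 is not readable, so whether it exceeded SLC25A5 cannot be read. COX4I1, COX6A1 and COX7A2 had 243, 405 and 68.2 TPM. Their muscle and lung forms had 4, 19 and 7 counts for COX4I2 and none for COX6A2 and COX7A1. With 3 counts per library as the floor, COX6A1 was at least 627.5-fold and COX7A2 at least 96.48-fold higher in TPM. IDH1, the cytosolic isocitrate dehydrogenase, was 2.13 ± 0.00441-fold above IDH3B, with IDH3G, IDH3A and IDH2 at 52.7, 35.6 and 24.4 TPM.

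Chaperone, translation and ferritin families had abundant leaders. HSP90AB1 was 1.80 ± 0.00494-fold above HSP90AA1 (2557 TPM), with HSP90B1 of the endoplasmic reticulum at 1067 and the mitochondrial TRAP1 at 352. HSPA8 was 5.83 ± 0.206-fold above HSPA9 (3.15-fold by CPM and 3.31-fold with coding lengths), and HSPA5, HSPA4, HSPA14 and HSPA13 had 575, 391, 76.4 and 57.2 TPM. HSPA6 and HSPA2 had 0.341 and 0.168, while the stress-induced HSPA1A and HSPA1B, HSPA1L and HSPA12A are not readable. EEF1A1 had 4384 TPM and EEF1A2, the form of muscle and neurons, 0.635. EIF4A2 had 681, 715 and 669 TPM, while EIF4A1 and EIF4A3 are not readable. The calmodulin genes CALM2 and CALM3, which code for the same protein, had 358 and 269 TPM. FTH1, the heavy chain of ferritin, was 2.42 ± 0.0608-fold above FTL, and FTMT had no count.

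Among 10331 readable nuclear genes that were expressed, the median was 22.1 TPM. Chromosome 8, which carries MYC, had the highest median with 30.4 TPM over 338 genes, and chromosomes X (16.03 TPM) and 6 (16.3) the lowest. The number of copies of each chromosome was not measured.

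The spread between the 3 libraries was set against counting error. Counts of the 2 lanes of 1 library had a chi-square per degree of freedom between 1.13 and 1.19, and counts of different libraries had 6.14 (replicates 1 and 2), 6.59 (1 and 3) and 3.92 (2 and 3). By a chi-square test of each gene's counts over the libraries, with Benjamini-Hochberg adjustment, 2741 of 14356 genes tested differed (19.1%). The test measures spread beyond counting error alone, which separately made libraries can exceed whatever their biology. Without replicate 1 the number was 1546 and without replicate 3 1121. Most differences were small: the median CV was 5.48% over these genes and 5.18% over all tested, and 412 of the 2741 had a CV of at least 10%. Of the 6 markers 5 differed by this test, MYC, VIM, CCND2, OTX2 and IGF2BP1, with CVs of 4.07% or less, and HMGA2 did not pass it (adjusted p = 0.264).

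Mitochondrial and some nuclear RNAs varied most. The largest CV among the genes that differed with a mean of at least 20 CPM was that of MT-RNR1, with 1609, 932 and 1326 TMM-normalised CPM (26.4%). RN7SK, a small nuclear RNA that restrains transcription elongation, had 27.3, 19.1 and 24.8 CPM (17.6%). Also high in replicate 1 were MT-ND4L (13.8%), MT-ND6 (13.6%) and MT-CO2 (13.3%), and all 13 mitochondrial protein-coding genes differed and were highest in that library. UPF3B, of mRNA quality control, had 39.8, 50.5 and 54.3 CPM (15.5%) and CCDC12, a splicing protein, 41.7, 50.4 and 55.3 (14.1%), both lowest in replicate 1. LRFN4 (13.6%), RRBP1 (13.3%) and BCYRN1 (13.2%) were highest in replicate 3. MALAT1 and NEAT1, which stay in the nucleus and were named after their values were seen, had 1637, 1297 and 1463 CPM and 30.7, 24.4 and 27.8 CPM, again highest in replicate 1. Of 79 ribosomal protein genes tested 59 differed, 44 of them lowest in replicate 1, while 1010 of all 2741 genes that differed were lowest there. The share that differed rose with depth, from 19.1% of all genes tested to 27.1% of those with a mean of at least 100 counts, and ribosomal protein genes are among the deepest. The part that RNA quality or enrichment of mRNA had in these differences was not tested.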

How the data were processed

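RNA of D283 cells was sequenced as 50-base read pairs. The authors deposited counts of reads for every gene, as whole numbers without normalization and separately for each lane, beside an exon length in bases. Per the submitters' processing notes the build was GRCh38.p14 and the tools included DESeq2 1.36.0, STAR 2.7.2b, MultiQC 1.11, featureCounts 1.6.3 and FastQC 0.11.9. Not given in the sources used here were the strand setting and how reads with several alignments were treated.

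The 2 lanes of each library were summed. Of 49677 rows, 26 had no counts, and 49651 were used, 5892 of them copies on alternate loci. RefSeq annotation matched 43120 entries. CPM used the library totals, and TPM the deposited exon length. A gene's readability was computed from the exon coordinates of the table, a rule added after the data were seen. Heterogeneity among the libraries was tested per gene with a chi-square test on 2 degrees of freedom for genes with a mean of at least 10 counts, with library sizes scaled by the trimmed mean of M values (TMM, edgeR 4.0.16 in R 4.3.3), adjusted by the Benjamini-Hochberg method with a threshold of 0.05. The chi-square test was tested on simulated data. No test between groups was made, and with 3 libraries a two-sided exact sign-flip test cannot give a p below 0.25, so orders within families are given by whether the libraries overlap. Intervals of promoter shares are exact binomial at 95%. Tables and figures were made with pandas 2.3.3, numpy 2.4.6, scipy 1.17.1 and matplotlib 3.10.9.

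The genes and the 84 lists (522 genes) were chosen with earlier results of these data known. Named are the 6 markers, the 22 subgroup genes, the 20 nuclear protein-coding genes of highest TPM and 5 by CPM, and the 13 mitochondrial ones. Each lineage or cell type list gives up to 5 members of highest level and every member with no read, and each family all members. Of the tumour suppressor list the 5 highest members and those below 0.1 TPM are named, and beside these the 10 genes of largest CV and the 10 noncoding genes of highest TPM. Results on some of these genes are not reported here. Alternatives tried were thresholds of 0.5 and 5 TPM, a filter of 10 counts, CPM in place of TPM, TPM without mitochondrial genes, coding lengths from GENCODE 29, single lanes, each replicate left out, readable genes alone, and total counts or DESeq2 1.42.0 size factors for TMM.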

Additional observations from a re-analysis of the deposited data

How the results depend on the processing

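The top 100 genes held 37.5% of TPM; the share of the top 100 was 19.8% by counts and 29.6% of TPM without mitochondrial genes, and 37.1% to 37.9% with a replicate left out. The number of genes that differed among libraries, 2741, was 1437 and 1390 in lane 1 and lane 2 alone and 1121 to 2009 with a replicate left out; fewer counts or libraries enter these tests. Totals over all genes or all lists of a kind stayed within 1.5 times or 1 SD of the values given in 55 other settings. Counts of single lists stayed within 1.5 times in 231 settings and moved in 22, such as 0 to 3 for the endothelial list. Family ratios stayed within the spread of the replicates in 165 settings, moved in 73 and reversed in 8. The log2 ratio of first over second became -1.005 by CPM and -0.97 by coding length for HMGB2 over HMGB1, -1.03 and -1.04 for TPM2 over TPM4, -0.24 and -0.32 for LMNB2 over LMNB1, and -0.40 and -0.23 for PFKP over PFKM. Coding lengths were found for 199 of 204 family members and 55 of 57 families. No paired analysis was possible because only 1 group was described. Exon length stands for the transcripts used, which were not measured, and depth limits genes with a few counts.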
